A study of Mus musculus with 9 samples.

Results

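The genes described here encode respiratory complexes III and IV, the last electron-carrying enzymes of the mitochondrial respiratory chain, together with the factors that assemble them. They were taken as the protein-coding mouse genes whose symbol begins with Uqcr, Uqcc or Cox followed by a digit, with Cyc1, Cycs, Bcs1l, Sco1, Sco2, Surf1 and Ttc19 added by name. This gave 45 genes among the 47729 gene identifiers of the count files. Of these, 26 are subunits (9 of complex III and 17 of complex IV), 18 are assembly or supercomplex factors (5 and 13) and 1 is Cycs, the mobile carrier cytochrome c. The rule itself uses symbols and no measured value. After a filter on low counts 42 of the 45 were tested, and Cox16, Cox8b and Cox8c were not.

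The libraries came from midbrain of mice aged 180 days on a C57/Bl6 background, and every group, controls included, carried Pitx3-Cre/+ and the Rosa-lox-stop-lox-Yfp reporter. The groups differed in the floxed Dot1l allele: Dot1l-+/+ (Dot1l(+/+), controls), Dot1l-+/fl (Dot1l(fl/+), heterozygotes) and Dot1l-fl/fl (Dot1l(fl/fl), homozygotes), with 3 libraries each. DOT1L is the methyltransferase that methylates lysine 79 of histone H3, and Cre made from the Pitx3 locus removes the floxed exon in dopamine neurons of the midbrain once they have left the cell cycle. The labels call the material dopamine neurons, and the series' design text speaks of sorted embryonic cells, while the titles give P180 and the study's methods for adults describe a dissected area without sorting, pooled over 3 animals. The tissue therefore also holds cells without Cre, and a replicate is a pool. The methods give that each nest supplied 1 matched set of the genotypes, so the pools were matched by litter across genotypes, but not whether pools with the same number hold the same litters, and the tests here take the libraries as unpaired.

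Electrons reach complex III from reduced coenzyme Q and leave it on cytochrome c. Complex IV, or cytochrome c oxidase, hands them to oxygen, and the proton gradient that both enzymes help to build drives ATP synthesis, for which dopamine neurons with their long branched axons have a high demand. Around the centres that carry haem, iron-sulfur and copper groups sit small subunits encoded in the nucleus, some of which exist as tissue isoforms, while assembly factors insert the metal groups or hold intermediates and are not part of the finished enzyme.

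Counts on genes summed to between 16422135 (homozygote replicate 3) and 28403218 (heterozygote replicate 2). The 45 genes held 0.218 to 0.231% of the counts in controls, 0.234 to 0.274% in heterozygotes and 0.226 to 0.249% in homozygotes. Levels are given in CPM, counts scaled to a common normalized library size. The summed level of 10 dopamine neuron markers was 630.2 to 696 CPM in controls, 491 to 639.8 in heterozygotes and 478 to 509 in homozygotes, with 3 and 8 of the markers lower than in controls at an unadjusted p under 0.05. In mixed tissue fewer cells of a type and less RNA per cell cannot be told apart. The 8 oligodendrocyte markers summed to far more, 10193 to 11244 CPM in controls, 10349 to 11699.7 in heterozygotes (3 of 8 higher at that limit) and 10409 to 10912 in homozygotes. The 3 choroid plexus markers summed to 52.6 to 134, 94.6 to 546 and 26.6 to 34.8 CPM, with all 3 higher in heterozygotes at that limit and the highest sum in heterozygote replicate 3. Their part in the results below was not tested. Heterozygote replicate 2 stood apart from its group over all genes: a chi-square per degree of freedom between libraries of a genotype was 15.2 and 16.5 for its pairs and 4.47 to 8.26 for the other 7 pairs. Dot1l measured 85.2, 80.2 and 85.1 CPM in controls, 84.2, 60.6 and 75.6 in heterozygotes and 82.1, 73.9 and 82.9 in homozygotes, a count that includes the exons outside the floxed one.

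In control midbrain the subunits were more abundant than the factors that assemble them. Between genes, levels were compared as CPM per kilobase of the principal transcript, and the median was 60.1 over the 26 subunits and 12.7 over the 18 assembly factors. Cox4i1, the common isoform of a subunit through which complex IV activity is regulated, was highest at 377 ± 20.3 CPM per kilobase (SD, n = 3). It was followed by Cox8a (193 ± 13.8) and Cox6a1 (160.4 ± 3.63), small subunits of complex IV that stood apart from each other by more than their spread. The next in order, Cox6c (149 ± 3.25) and Cox6b1 (145 ± 3.71), did not differ beyond their spread, nor did Uqcrc1 (139 ± 13.1) and Cox5a (131 ± 8.24) after them.

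The 9 subunits of complex III lay between 42.8 (Uqcr11) and 139 (Uqcrc1) CPM per kilobase, with the large core proteins Uqcrc1 and Uqcrc2 (121 ± 6.25) near the upper end. Among the assembly factors, Cox7a2l, counted here as a supercomplex factor, was highest at 54.3 ± 0.865. Surf1, needed to build the catalytic core of complex IV and altered in a form of Leigh syndrome, was at 36.4 ± 2.05, and the copper chaperones Sco1 and Sco2 were at 4.72 ± 0.433 and 3.00 ± 0.30. Cycs was at 4.50 ± 0.420 CPM per kilobase.

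**Figure D1:**
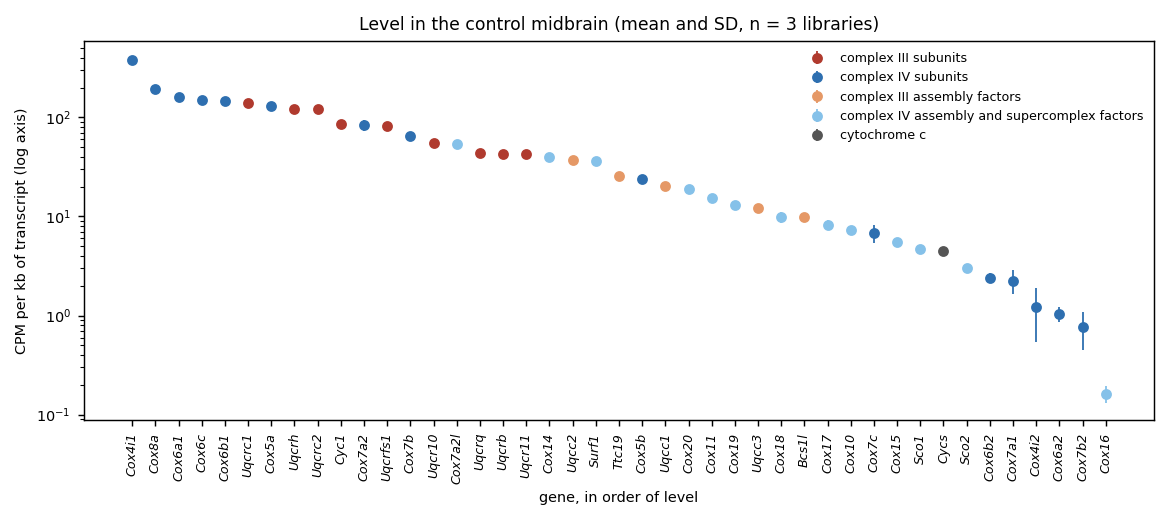
Level of the genes in control midbrain, as CPM per kilobase of the principal transcript on a log axis, in order of level (points, mean; bars, SD over 3 libraries; colour, role). Common complex IV subunits lead the order, with Cox4i1 at 377, assembly factors fill the middle, and the tissue isoforms at 2.41 CPM per kilobase and below stand at its end with the assembly factor Cox16, while Cox8b and Cox8c are not drawn.

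The tissue isoforms of complex IV were close to absent beside their common partners. Cox4i2, known from lung, Cox6a2, Cox7a1 and Cox8b, known from heart and skeletal muscle, and Cox6b2, Cox7b2 and Cox8c, known from testis, had a median of 1.04 CPM per kilobase, against 138 for the other 10 complex IV subunits. Cox4i2 took 0.145 to 0.480% of the summed level of Cox4i1 and Cox4i2 in controls, 0.192 to 0.301% in heterozygotes and 0.140 to 0.463% in homozygotes, and these ranges overlapped. Cox4i2 itself measured 0.946, 1.37 and 0.376 CPM in controls, 0.862, 0.989 and 0.649 in heterozygotes and 1.40, 0.474 and 0.728 in homozygotes. Cox8b had 0 to 1 counts in a control library, 2 to 3 in a heterozygote and 1 to 4 in a homozygote library, too few to compare, and Cox8c had 0 in all 9.

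Cox7a1 took 2.08 to 3.95% of the summed level of Cox7a1 and Cox7a2 in controls, 3.37 to 4.20% in heterozygotes and 2.66 to 4.23% in homozygotes, again with overlap. Cox6a2 took 0.531 to 0.705% beside Cox6a1 in controls, 0.616 to 0.989% in heterozygotes and 0.729 to 1.53% in homozygotes, and here the homozygote libraries lay above the controls. Few reads stand behind these shares, since a control library had 12 to 21 counts of Cox6a2 and 15 to 27 of Cox7a1. The muscle markers Myh6, Myl2, Ckm and Acta1 summed to 1.72 to 2.55 CPM in controls, 1.60 to 2.76 in heterozygotes and 1.94 to 4.04 in homozygotes, with Ckm at 0 in 7 libraries, and their part in the Cox6a2 and Cox7a1 values was not tested.

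The first comparison asks what 1 floxed allele changed. Subunits of both complexes tended to be higher in heterozygotes: in edgeR's quasi-likelihood test 11 of 24 tested subunits were higher than in controls at an unadjusted p under 0.05 and 0 were lower, while 4.3% of the 17671 genes tested were higher and 4.09% lower at that limit. Of 17 tested assembly factors 3 were higher (Uqcc2, Sco2 and Cox14) and 0 lower, and Cycs did not pass (log2 fold change −0.19, SE 0.12). The calls of Sco2 and Cox14, and of the subunit Cox7a1, were lost in DESeq2 on all 9 libraries and on the 2 genotypes (2.41% and 2% of the genes with a p higher), and no assembly factor was higher without control replicate 3 or heterozygote replicate 2. The median log2 fold change was 0.28 for the subunits and 0.095 for the assembly factors, against −0.0034 for all genes tested. It was positive in 23 of 24 subunits and 10 of 17 assembly factors, and in 48.9% of all genes.

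No gene passed an adjusted p of 0.05 in edgeR (0% of the 17671 tested), where the lowest adjusted p among these 42 was 0.540. DESeq2 on all 9 libraries put 1 of them (Cox7b) past that limit, and DESeq2 on the libraries of the 2 genotypes put 5 past it (Cox5a, Cox7b, Cox8a, Uqcr10 and Uqcrh), where 7 of 14554 and 45 of 13646 genes with an adjusted p passed. With no filter on low counts edgeR put 10 of them past it, beside 251 of 28316 genes tested. At an unadjusted p under 0.01 edgeR had 9 subunits and 0 assembly factors higher, with 1.01% of all genes higher at that limit. In 14 of 24 subunits and 3 of 17 assembly factors every heterozygote library lay above every control, as it did in 6.84% of all genes.

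The 7 promoters that follow belong to 7 of the 8 subunits with the lowest p in this comparison (Uqcrq is the other) and are shown because these genes were higher together. They are the 100 bases before the RefSeq start site (GRCm38.p6): chrX:106015600-106015699 (plus strand) for Cox7b, chr19:7217617-7217716 (minus strand) for Cox8a, chr4:116075071-116075170 (minus strand) for Uqcrh, chr9:57521132-57521231 (plus strand) for Cox5a, chr11:4704345-4704444 (minus strand) for Uqcr10, chr7:30626115-30626214 (minus strand) for Cox6b1 and chr10:80406822-80406921 (minus strand) for Uqcr11. Each is written 5′ to 3′ on the strand of its gene, and capitals mark CCGGAA or its reverse complement, the core of the motif of GABPA, an ETS factor known to bind promoters of respiratory genes.
Cox7b: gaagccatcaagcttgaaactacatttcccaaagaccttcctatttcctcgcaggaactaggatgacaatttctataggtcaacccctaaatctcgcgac
Cox8a: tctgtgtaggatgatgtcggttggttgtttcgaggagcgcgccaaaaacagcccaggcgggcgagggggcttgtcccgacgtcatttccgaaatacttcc
Uqcrh: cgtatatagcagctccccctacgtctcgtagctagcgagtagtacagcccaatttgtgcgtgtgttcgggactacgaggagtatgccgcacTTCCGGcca
Cox5a: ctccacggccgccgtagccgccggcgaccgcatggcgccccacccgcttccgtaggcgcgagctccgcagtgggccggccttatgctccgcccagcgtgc
Uqcr10: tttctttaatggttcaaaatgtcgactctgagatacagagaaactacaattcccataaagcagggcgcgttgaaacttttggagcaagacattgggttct
Cox6b1: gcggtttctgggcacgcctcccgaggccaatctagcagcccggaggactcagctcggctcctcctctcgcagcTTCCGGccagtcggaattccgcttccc
Uqcr11: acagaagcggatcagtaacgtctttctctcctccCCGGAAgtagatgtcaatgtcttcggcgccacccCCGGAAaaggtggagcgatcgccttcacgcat

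Over windows of 250 bases before and 50 after the start site, CCGGAA stood on either strand in 17 of the 34 genes that had a window, and in 14.9% of all 32851 windows of the table. The match was in 7 of 17 subunits and in 10 of 16 assembly factors. All windows were used, without matching to these genes in base content or expression, and the shares here and below were not tested. In Cox8a a match starts at base −4 and runs over the start site and others follow it, and in Cox7b, Cox5a and Uqcr10 these letters are not in the window. The longer form CCGGAAGT, whose matches are also matches of the shorter, was in 8 of 34 genes and in 3.89% of windows. The motif GCGCATGC of NRF1 was in 5 of 34 genes and in 2.71% of windows, and the form TGCGCA in 4 of 34 genes and in 7.76% of windows. For YY1, AAGATGGC was in 3 of 34 genes and in 2.75% of windows, and AANATGGC, which includes it, in 4 of 34 genes and in 6.05% of windows. Cox17, Cox18, Cox4i1, Cox4i2, Cox6a2, Cox6c, Cox8c, Cyc1, Uqcrb, Uqcrc2 and Uqcrq had no entry.

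Most of the difference in complex III lay in its small subunits. Uqcrh (chr4:116066965-116075071, GRCm38), the acidic hinge protein at which complex III meets cytochrome c, measured 67.6, 68.1 and 65.2 CPM in controls, 74.5, 89.3 and 88.8 in heterozygotes and 68.3, 86.6 and 72.3 in homozygotes. All heterozygote and homozygote libraries lay above the controls, and the log2 fold change in heterozygotes was 0.33 (SE 0.087, unadjusted p 0.00208). Uqcrq (chr11:53427922-53430831), a small subunit close to the mitochondrially encoded cytochrome b, measured 39.3, 46.0 and 39.7 CPM in controls, 47.4, 58.5 and 52.5 in heterozygotes and 50.5, 50.3 and 42.6 in homozygotes. Its log2 fold change was 0.34 (SE 0.092), without overlap between heterozygotes and controls.

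Uqcr10 (chr11:4701973-4704342) and Uqcr11 (chr10:80402997-80406830), the smallest membrane subunits of the complex, had larger differences and a larger spread. Uqcr10 measured 23.6, 25.8 and 22.1 CPM in controls, 27.6, 38.2 and 38.3 in heterozygotes (log2 fold change 0.54, SE 0.16) and 29.5, 34.7 and 21.2 in homozygotes. Uqcr11 measured 18.2, 19.3 and 19.6 CPM in controls, 20.7, 28.4 and 29.2 in heterozygotes (0.46, SE 0.14) and 21.3, 25.3 and 17.0 in homozygotes. In both genes heterozygote replicate 1 stood just above the controls and the other heterozygotes far above them, while homozygote replicate 3 fell below every control.

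The core of complex III differed less. Uqcrc1 and Uqcrc2, the large proteins that face the matrix, Cyc1, the haem-carrying cytochrome that passes electrons to cytochrome c, and Uqcrfs1, the Rieske iron-sulfur protein, had log2 fold changes of 0.097 (SE 0.071), 0.098 (SE 0.060), 0.10 (SE 0.058) and 0.069 (SE 0.049) in heterozygotes, and none passed an unadjusted p of 0.05. The 5 small subunits had a median of 0.34, and in all 5 the heterozygote libraries lay above the controls, which held for 0 of the 4 core subunits. This division of the complex was made after the values had been seen, and the difference between the core and the small subunits was not tested. The core genes also tend to be longer, with 1363 to 4135 exon bases against 584 to 1831.

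**Figure D2:**
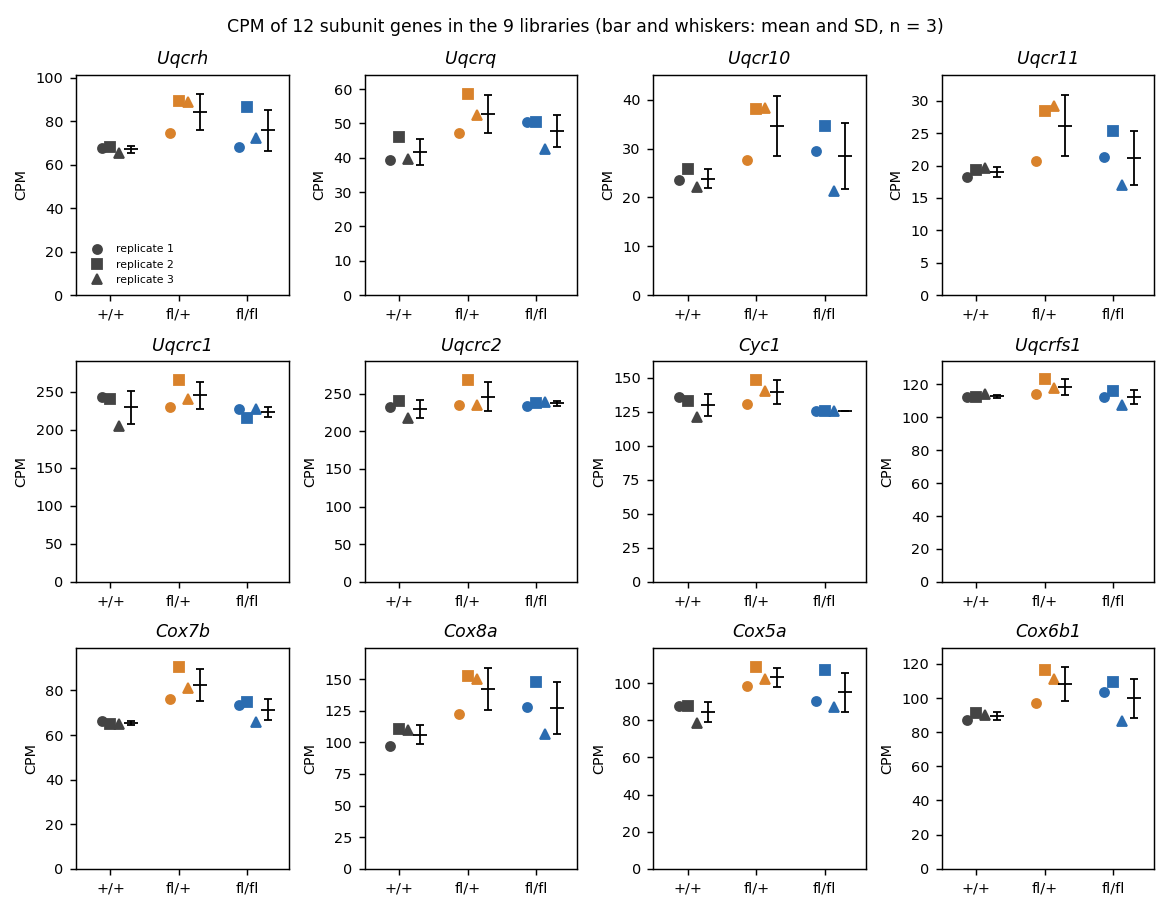
CPM of subunit genes in each of the 9 libraries (colour, genotype; symbol, replicate number; bar and whiskers, mean and SD over 3 libraries). In Uqcrh, Uqcrq, Uqcr10, Uqcr11, Cox7b, Cox8a, Cox5a and Cox6b1 the 3 heterozygote libraries sit above the 3 controls, with replicate 1 the nearest to them in each, and in Uqcrc1, Uqcrc2, Cyc1 and Uqcrfs1 they overlap the controls.

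Among complex IV subunits the lowest p belonged to Cox7b (chrX:106015700-106022450), a small membrane subunit of the enzyme. It measured 66.2, 64.8 and 65.1 CPM in controls, 76.2, 90.3 and 81.0 in heterozygotes and 73.5, 74.7 and 65.9 in homozygotes. The controls lay within a narrow band that all heterozygote libraries exceeded, and the log2 fold change was 0.34 (SE 0.068, unadjusted p 0.000238). Cox8a (chr19:7215153-7217616), another small membrane subunit, measured 97.2, 111 and 109.9 CPM in controls, 123, 152 and 150.5 in heterozygotes and 128, 148 and 107 in homozygotes. Its log2 fold change was 0.42 (SE 0.11), with every heterozygote above every control.

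Cox5a (chr9:57521274-57532426), a subunit on the matrix side, measured 87.8, 87.6 and 78.5 CPM in controls, 98.5, 109 and 102 in heterozygotes and 90.6, 107 and 87.4 in homozygotes. Cox6b1 (chr7:30616861-30626151), which links the monomers of complex IV on the side of the intermembrane space, measured 87.0, 91.5 and 89.8 CPM in controls, 97.3, 116 and 111 in heterozygotes and 103, 109 and 86.8 in homozygotes. In both genes every heterozygote library exceeded every control, and the log2 fold changes were 0.29 (SE 0.075) and 0.28 (SE 0.081). Cox6a1 measured 89.3, 92.1 and 93.3 CPM in controls, 101, 117 and 115 in heterozygotes (0.28, SE 0.089) and 109.7, 113 and 85.1 in homozygotes. Cox4i1 measured 293, 294 and 267 CPM in controls, 295, 389.6 and 349 in heterozygotes (0.27, SE 0.093) and 311, 350.0 and 287 in homozygotes. In these the heterozygotes also lay above the controls, Cox4i1 in replicate 1 only just.

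The other common subunits of complex IV had smaller or less certain differences. Cox5b, a zinc-binding subunit, had a log2 fold change of 0.25 (SE 0.12, unadjusted p 0.0554), Cox6c of 0.096 (SE 0.076) and Cox7c of 0.33 (SE 0.23). Cox7a2 measured 55.9, 47.3 and 60.8 CPM in controls, 54.4, 61.2 and 68.6 in heterozygotes (0.17, SE 0.10) and 48.6, 55.8 and 57.6 in homozygotes, with all groups overlapping. Among the tissue isoforms Cox7a1 alone passed, at 0.709, 1.16 and 0.789 CPM in controls, 1.21, 1.27 and 1.79 in heterozygotes (0.68, SE 0.28) and 1.28, 0.909 and 1.40 in homozygotes. Cox6a2, Cox6b2, Cox7b2 and Cox4i2 had log2 fold changes of 0.50, 0.42, 0.086 and −0.083, with SEs of 0.32 to 0.45.

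The assembly factors were divided. Uqcc2 (chr17:27122663-27133916), which acts at an early step of complex III assembly, when cytochrome b is made, measured 19.2, 19.3 and 17.1 CPM in controls, 19.7, 27.0 and 23.7 in heterozygotes and 17.6, 23.8 and 19.0 in homozygotes. Its log2 fold change of 0.34 (SE 0.13) came with heterozygote replicate 1 barely above the controls and the others well above. Sco2 (chr15:89371637-89373846), which delivers copper to the catalytic core of complex IV, measured 3.31, 3.99 and 3.46 CPM in controls, 4.11, 4.95 and 4.81 in heterozygotes (0.37, SE 0.15) and 3.76, 4.27 and 3.28 in homozygotes. Its exon bases overlap those of Ncaph2 on the other strand by 66.2% and of Tymp on the same strand by 68.3%, and the sources used here do not give the strand setting of the counting. Cox14, which acts on the making of the largest mitochondrially encoded subunit, measured 30.1, 28.5 and 27.4 CPM in controls, 29.4, 34.1 and 34.0 in heterozygotes (0.18, SE 0.083) and 27.0, 31.8 and 29.7 in homozygotes, and the groups overlapped.

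The remaining 14 tested assembly factors did not pass in either direction. Surf1 (0.14, SE 0.069), Cox11 (0.15, SE 0.089) and Cox20 (0.15, SE 0.11) had positive log2 fold changes, as had Cox7a2l (0.13, SE 0.075), at 58.8, 57.3 and 59.0 CPM in controls, 57.5, 70.0 and 64.1 in heterozygotes and 63.1, 59.3 and 53.7 in homozygotes. Cox10 and Cox15, which make the haem of complex IV, had 0.025 (SE 0.092) and −0.041 (SE 0.10), and Bcs1l, which inserts the Rieske protein, −0.0014 (SE 0.11). The lowest value was that of Cox18 (−0.27, SE 0.14), which helps to insert a mitochondrially encoded subunit into the membrane. Cox20 shares 91.0% of its exon bases with Hnrnpu on the other strand, and Cox11 shares 48.35% with Tom1l1 on the other strand, so their counts are uncertain.

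**Figure D3:**
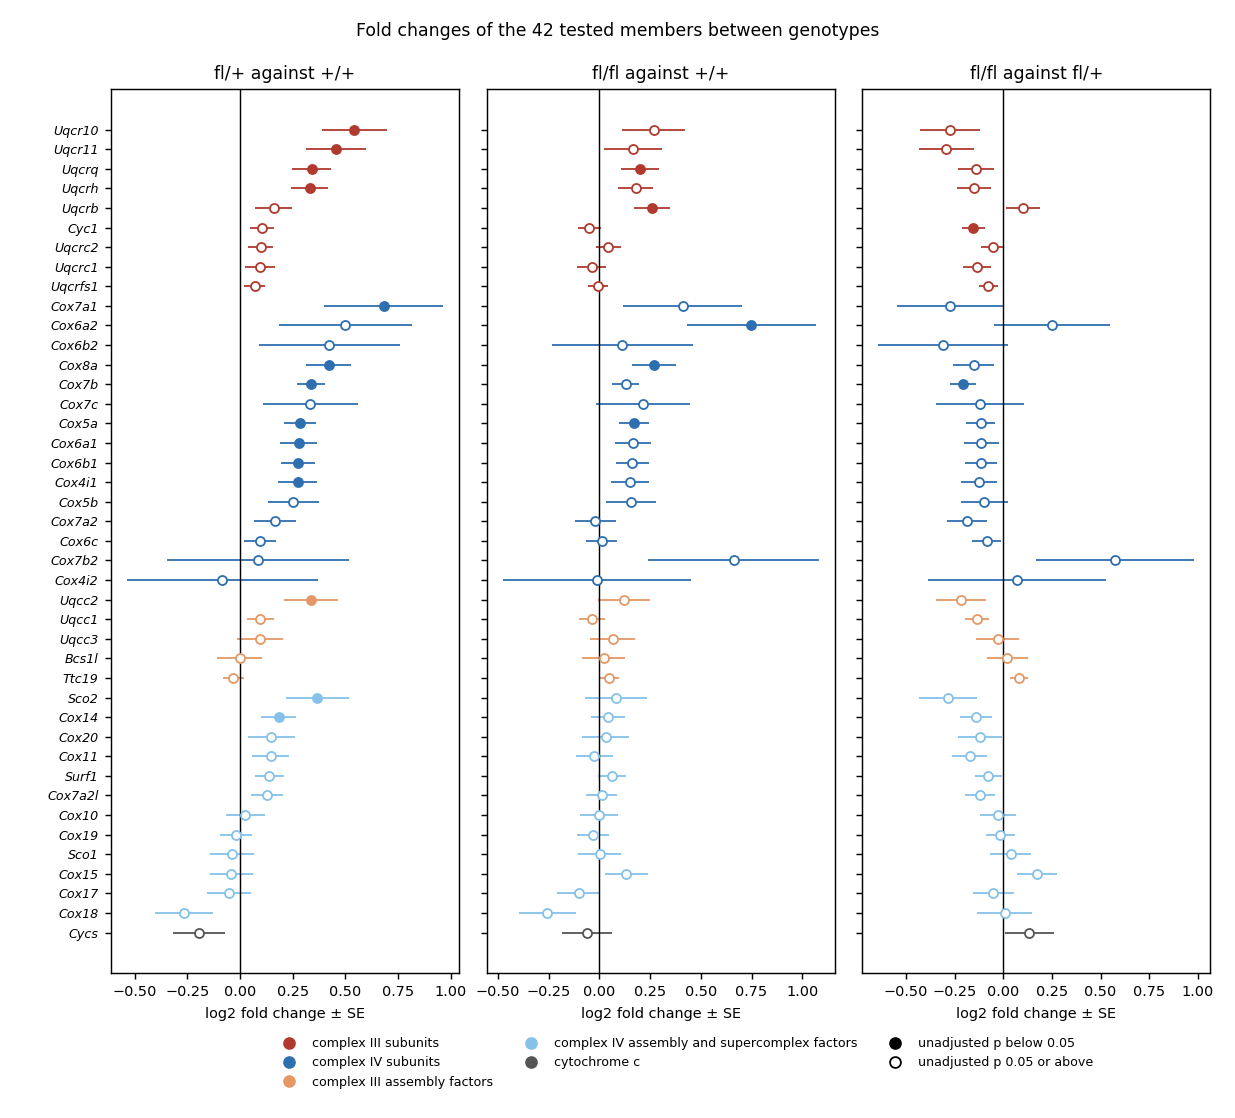
Log2 fold change with its standard error of the 42 tested genes in the 3 comparisons between genotypes, by role (filled points, unadjusted p under 0.05 in edgeR). Against controls 23 of 24 subunits lie right of 0 in heterozygotes and 19 in homozygotes, and between the mutants 4 do.

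The heterozygote libraries were not alike. Averaged over the 24 tested subunits, log2 CPM stood 0.12 above the control mean in replicate 1, 0.34 in replicate 2 and 0.33 in replicate 3, where the controls themselves lay at −0.0058, 0.079 and −0.074. For the assembly factors the same average was −0.028, 0.13 and 0.10, and their median log2 fold change was 0.059 without replicate 1. Over the shortest of 5 equal classes of all genes by exon length it was 0.034, 0.090 and 0.11 in heterozygotes and 0.018, 0.094 and −0.0063 in homozygotes, where the subunits had 0.15, 0.25 and 0.082, so short genes as a whole were also lowest in heterozygote replicate 1 and highest among homozygotes in replicate 2. Without heterozygote replicate 1, 21 of these genes were higher at an unadjusted p under 0.05 in edgeR (15 subunits and 6 assembly factors), and over all genes the share higher also went up, to 6.28%. Without replicate 2, 11 were higher, all subunits, and 2 were lower (Cox18 and Cycs), with 4.71% of all genes higher and 5.45% lower.

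**Figure D4:**
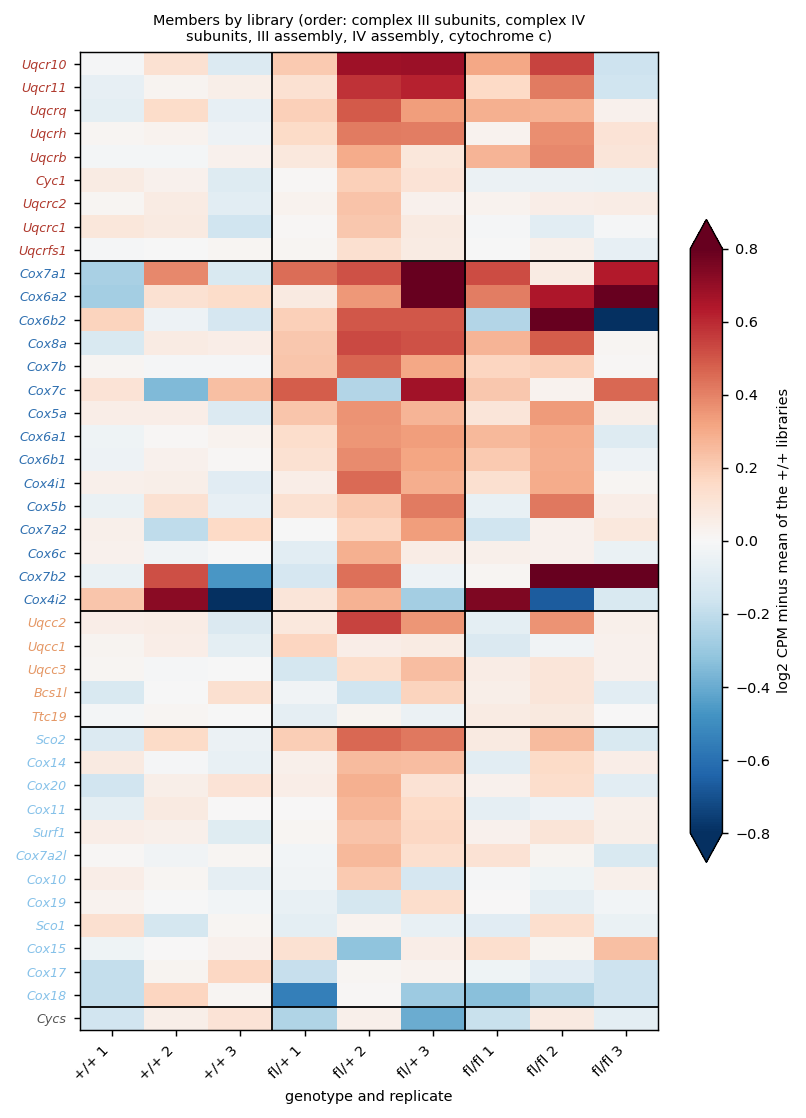
Log2 CPM of each tested gene (lines) in each library (columns) minus the mean of the 3 controls, red above and blue below, in blocks of genotype and role. The subunits stand highest in heterozygote replicates 2 and 3 (0.34 and 0.33 on average) and lower in replicate 1 (0.12), and the assembly factors show less of it.

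The second comparison sets 2 floxed alleles against the same controls. In homozygotes 5 of 24 subunits were higher than in controls at an unadjusted p under 0.05 in edgeR (Uqcrb, Cox8a, Cox6a2, Cox5a and Uqcrq) and 0 were lower, with 2.21% of all genes higher and 1.72% lower at that limit. None of the 17 assembly factors passed, nor did Cycs (−0.061, SE 0.13). In the same comparison 2 of 6 microglia markers were higher (with a median log2 fold change over the list of 0.15, and 0.15 in heterozygotes, where 0 passed). Of 4 cortex and hippocampus markers 1 was higher, with a median over the list of −0.073, and 1 of 3 choroid plexus markers was lower. The part of these markers was not tested. The microglia markers summed to 206 to 218 CPM in controls, 206 to 237 in heterozygotes and 231 to 248 in homozygotes. The median log2 fold change was 0.16 for the subunits and 0.020 for the assembly factors, and 19 of 24 and 11 of 17 had a positive value, as had 50.4% of all genes. Without homozygote replicate 2 the medians were 0.084 for the subunits and −0.017 for the assembly factors, and without homozygote replicate 3 they were 0.22 for the subunits and 0.056 for the assembly factors. The lowest adjusted p among the 42 in edgeR was 0.999. Every homozygote library lay above every control in 4 of the 42, and in 5.03% of all genes. DESeq2 put 4 of these genes under an unadjusted p of 0.05 on all 9 libraries and 7 on the libraries of the 2 genotypes, all higher, where 0.993% and 1.14% of the genes with a p were higher, and 0 under an adjusted p of 0.05 (3 of 28310 and 8 of 9980 genes with an adjusted p).

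Uqcrb (chr13:66900617-66905378), a small subunit on the matrix side of complex III, measured 22.7, 22.7 and 23.4 CPM in controls, 24.3, 28.2 and 24.4 in heterozygotes and 27.7, 29.9 and 24.6 in homozygotes. Both mutant groups lay above the controls, with a log2 fold change of 0.26 in homozygotes (SE 0.088, unadjusted p 0.0110) and 0.16 in heterozygotes (SE 0.088, unadjusted p 0.0920). Cox6a2 measured 0.567, 0.773 and 0.789 CPM in controls, 0.744, 0.919 and 1.37 in heterozygotes and 0.960, 1.15 and 1.58 in homozygotes, a log2 fold change of 0.75 (SE 0.32) for the latter, which lay above the controls. Cox8a, Cox5a and Uqcrq, whose libraries were given above, had log2 fold changes of 0.27 (SE 0.11), 0.17 (SE 0.076) and 0.20 (SE 0.093), and in each homozygote replicate 3 lay within the range of the controls.

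For the core of complex III the homozygote values were close to 0. Uqcrc1, Uqcrc2, Cyc1 and Uqcrfs1 had log2 fold changes of −0.038, 0.044, −0.049 and −0.0089, with SEs of 0.071, 0.060, 0.059 and 0.049. The 5 small subunits had values between 0.16 and 0.27. Both comparisons use the same control libraries, so their values are not independent of each other. The count in homozygotes also hung on single libraries: in edgeR it was 0 without homozygote replicate 2, 8 higher without homozygote replicate 3, 7 higher and 1 lower (Cox18) without heterozygote replicate 2, 2 higher and 1 lower (Cox18) without control replicate 1 and 3 higher without control replicate 3. The shares of all genes higher in these fits were 1.05%, 3.22%, 2.82%, 1.60% and 2.23%.

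The third comparison sets the mutants against each other. In homozygotes 2 subunits were lower than in heterozygotes at an unadjusted p under 0.05 in edgeR and 0 were higher, with 2.87% of all genes lower and 3.6% higher at that limit, and no assembly factor passed. Cox7b differed by −0.21 (SE 0.068, unadjusted p 0.00868), with all homozygote libraries below all heterozygote libraries. Cyc1 (chr15:76343523-76346260) measured 136, 133 and 121 CPM in controls, 131, 148 and 140.1 in heterozygotes and 126, 126 and 125 in homozygotes, a log2 difference of −0.15 between the mutants (SE 0.058, unadjusted p 0.0201), and its homozygote libraries lay within a very narrow range. With the offset for length and GC content described below it was −0.082 (unadjusted p 0.171) and no longer called, while Cox7b was −0.22. Next came the assembly factor Uqcc1 (−0.13, SE 0.063, unadjusted p 0.0501), at 54.3, 55.6 and 50.8 CPM in controls, 60.3, 55.7 and 55.9 in heterozygotes and 49.5, 52.5 and 54.8 in homozygotes.

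Every homozygote library lay below every heterozygote library in 4 of the 42 (Cox7b, Cyc1, Uqcc1 and Uqcrc1), and in 5.14% of all genes. The lowest adjusted p was 0.708, the median log2 difference of the subunits −0.12, and 10 of the 42 were positive, against 50.5% of all genes. That median was −0.18 without homozygote replicate 2, −0.18 without heterozygote replicate 1, −0.075 without heterozygote replicate 2 and −0.063 without homozygote replicate 3. With the offset for length and GC content it was −0.091. The median of the assembly factors was −0.051, and −0.033 with the offset. Without heterozygote replicate 1 the count at an unadjusted p under 0.05 was 18 (17 lower and 1 higher), without homozygote replicate 2 it was 13 lower, and without control replicate 3 it was 4 lower. Without heterozygote replicate 2 it was 2 higher and 2 lower, with Cycs and Ttc19 higher, Cox7b and Uqcc1 lower and Cyc1 no longer called. In these fits 4.32%, 3.08%, 2.87% and 4.26% of all genes were lower. The shares higher were 5.05%, 2.46%, 3.28% and 5.53%. With the replicate number as a block 5 of these genes were lower and 0 higher, beside 3.19% and 3.94% of all genes. Some cell type markers were also lower in homozygotes than in heterozygotes: 4 of 8 for oligodendrocytes, 3 of 3 for choroid plexus and 5 of 10 for dopamine neurons at that limit, with median log2 differences of −0.13, −2.31 and −0.37, and their part was not tested.

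Exon length moved with these values. Genes were divided by exon length into 5 classes of equal size, and 27 of the 42 tested genes fell in the shortest (57 to 1977 bases). There all genes had a median log2 fold change of 0.079 in heterozygotes and 10.6% of them were higher at an unadjusted p under 0.05, against 0.994% in the longest class. The 27 had a median of 0.28, and 13 were higher. In homozygotes the shortest class had a median of 0.034 over all genes and 0.15 over the 27, of which 4 were higher against 5.99% of all genes in that class. Between the mutants the shortest class had a median of −0.045 over all genes and −0.12 over the 27. Of all genes in it 1.62% were higher in homozygotes than in heterozygotes, against 5.88% in the longest class. Across the 24 subunits the log2 fold change in heterozygotes and log2 length had a Pearson r of −0.48 and a Spearman rho of −0.47, and across the 17 assembly factors −0.65 and −0.74. These are descriptions across genes measured in the same libraries.

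With an offset for length and GC content fitted in each library, the median of the subunits in heterozygotes was 0.19 and that of the assembly factors 0.0023. Over all genes 4.37% were higher and 2.5% lower at an unadjusted p under 0.05. Of the 14 genes called without it 9 were still called and no others were: Cox7b (0.31), Cox8a (0.27), Uqcr10 (0.40), Uqcr11 (0.31), Uqcrh (0.26), Uqcrq (0.28), Cox5a (0.29), Cox6b1 (0.15) and Cox4i1 (0.20), all of them subunits. Cox6a1 (0.14), Uqcc2 (0.22), Sco2 (0.27), Cox14 (0.052) and Cox7a1 (0.52) were not. In homozygotes against controls the medians with the offset were 0.14 for the subunits and −0.0083 for the assembly factors. Of the 17 assembly factors 7 then had a positive value. There 4 genes were higher and 0 lower, with Uqcrq no longer called, beside 2.26% and 1.68% of all genes. With the offset the Pearson r with log2 length in heterozygotes was still −0.30 across the subunits and −0.37 across the assembly factors. In homozygotes it was −0.52 and −0.16. The offset therefore did not remove the relation to length among these genes. The part of length in the values without the offset was not tested in another way.

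**Figure D5:**
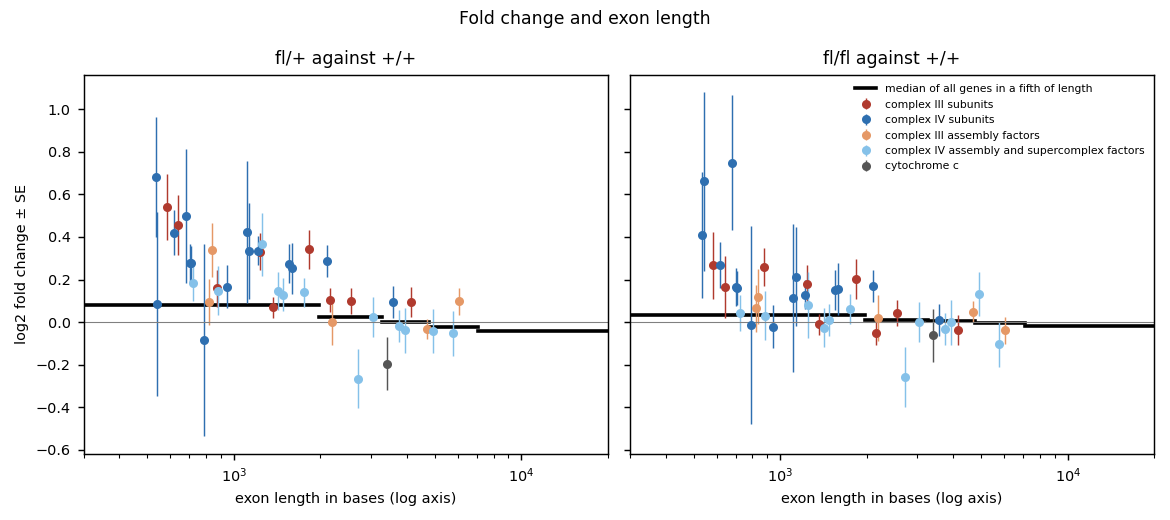
Log2 fold change of the 42 tested genes against exon length on a log axis, in heterozygotes and in homozygotes against controls, with the median of all genes in each of 5 length classes. The short subunits Uqcr10, Uqcr11 and Cox8a lie above the median of the shortest class at 0.079 and 0.034.

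Near-identical copies made some of these counts uncertain. A gene with at least 95% identity to the coding sequence was found among the counted genes for 10 of the 45 (19 in all, most of them processed pseudogenes), and reads could have been divided between them. Over the 9 libraries the copies held 3741 beside the 5543 of Uqcrb, 2647 beside the 4983 of Cox5b, 505 beside the 918 of Cox7c, 804 beside the 4909 of Uqcr11 and 960 beside the 16079 of Cox7b. With the copies added to each gene, an alternative chosen after seeing the data, 17 genes were higher in heterozygotes at an unadjusted p under 0.05 in edgeR, the 14 from before with Cox5b (0.38, SE 0.14), Cox7c (0.54, SE 0.17) and Uqcrb (0.29, SE 0.098). In homozygotes 8 were higher, the 5 from before with Cox5b, Cox7b and Cox7c. In these fits 4.64% and 2.29% of all genes were higher. The level of Cox7c, 6.84 ± 1.43 CPM per kilobase in controls, is without the reads of its copies.

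Other genes of the same enzymes were taken from a list of 2 further subunits or isoforms, 21 assembly factors and 8 regulators, with 4 mitochondrially encoded subunits. Ndufa4, now counted as a subunit of complex IV, measured 95.4, 105 and 89.1 CPM in controls, 108, 138 and 113 in heterozygotes (0.31, SE 0.097, unadjusted p 0.00663) and 112, 125 and 99.0 in homozygotes (0.22, SE 0.098, unadjusted p 0.0448). The heterozygote libraries did not overlap the controls. Of the further assembly factors 19 were tested, 2 were higher in heterozygotes and 0 lower, namely Higd2a (0.19, SE 0.081), a supercomplex factor, and Fdx1l (0.25, SE 0.10), a ferredoxin, beside 4.3% of all genes higher and 4.09% lower at that limit, and 0 passed in homozygotes (2.21% and 1.72% of all genes). Their median log2 fold change in heterozygotes was 0.094, beside 0.095 for the assembly factors above.

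Among regulators of respiratory genes, Ppargc1a, a coactivator known for its role in mitochondrial biogenesis, measured 84.3, 84.8 and 82.1 CPM in controls, 79.6, 75.6 and 71.1 in heterozygotes and 80.9, 77.6 and 87.3 in homozygotes. In heterozygotes all its libraries lay below the controls (−0.15, SE 0.058, unadjusted p 0.0229). Nrf1, Gabpa, Gabpb1, Yy1, Esrra, Ppargc1b and Pprc1 did not pass in either mutant against controls, with log2 fold changes in heterozygotes between −0.17 and 0.14. In homozygotes against heterozygotes Gabpb1 was higher (0.18, SE 0.084) and Esrra lower (−0.18, SE 0.081) at an unadjusted p under 0.05.

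The mitochondrially encoded cytochrome b of complex III (mt-Cytb) and the catalytic subunit mt-Co1 of complex IV did not pass against controls, with log2 fold changes of −0.048 (SE 0.083) and 0.012 (SE 0.10) in heterozygotes and 0.15 and 0.14 in homozygotes. mt-Cytb was higher in homozygotes than in heterozygotes (0.19, SE 0.083, unadjusted p 0.0357). mt-Co1 did not pass there (0.13, SE 0.10). mt-Co2 and mt-Co3 were counted at 0.119 to 0.530 CPM beside 7791 to 10753 for mt-Co1, so no level is read from them.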

How the data were processed

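The authors isolated RNA from dissected adult midbrain, pooled 3 animals per library, made directional libraries (NEBNext Ultra), sequenced them on an Illumina NextSeq 500 and mapped the reads to GRCm38.p4. The deposited files hold raw read counts per Ensembl gene, and the aligner, counter and annotation are not given in the sources used here. The authors also deposited comparisons made with DESeq2 (mean normalized counts, log2 fold changes, errors, test scores and p-values), which were not used. The submitters' processing notes name bcl2fastq 2.17, Trimmomatic 0.30 and DESeq2 1.10.1.

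Symbols, positions and lengths came from GENCODE M21, in which 47310 identifiers matched. Genes were kept with filterByExpr (17671), normalized by TMM (factors 0.988 to 1.01) and tested with edgeR 4.0.16 in 1 quasi-likelihood fit of all 9 libraries by genotype, with Benjamini-Hochberg adjustment over all genes (R 4.3.3). The common biological coefficient of variation was 8.81%. "Called" and "passed" stand for an unadjusted p under 0.05, read against the share of all genes at that limit. Each library is a pool, and p-values measure only the spread between these libraries. Copies were sought with BLAST 2.17.0 (at least 95% identity over 75 bases of coding sequence). On simulated data for heterozygotes against controls, with 200 changed genes, a log2 change of 0.3 (17474 genes in the fit) was recovered in 54.0% at an unadjusted and in 4.5% at an adjusted p under 0.05, and one of 0.5 (17490 genes) in 76.9% and 50.5%.

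The genes, lists and motifs were chosen with earlier results of these data known. Values in every library were given for the 8 subunits and 3 assembly factors with the lowest p in the first comparison, the 3 genes with the lowest p in each of the others, and the isoform families Cox4i, Cox6a, Cox7a and Cox8. Alternatives were DESeq2 1.42.0, its size factors, no filter or 10 counts in every library, the 2 genotypes alone, the length and GC offset (splines of 4 degrees of freedom), the replicate number as a block, each library left out, and the copies added.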

Additional observations from a re-analysis of the deposited data

How the results depend on the processing

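In heterozygotes against controls 8 of the 14 called genes (Cox5a, Cox6b1, Cox7b, Cox8a, Uqcr10, Uqcr11, Uqcrh and Uqcrq) were called under all 19 alternatives run. The count was 9 with the length and GC offset, which took the median of the assembly factors to 0.0023 (0.0031 with the replicate block added), and 11 to 21 with 1 library left out. In homozygotes against controls no gene was called under all 19: the count of 5 was 10 with the 2 genotypes alone (965 of 17311 genes tested) and 11 with no filter (Cox18 lower in both), 8 with the copies added and 0 to 8 with 1 library left out. Between the mutants Cox7b was called under all 19, and the count of 2 was 4 with DESeq2 on the 2 genotypes, 10 with no filter and 2 to 18 with 1 library left out, where the median of the assembly factors ran from −0.12 to −0.047. With no filter, edgeR put 1 of these genes (Cox8a) past an adjusted p of 0.05 in homozygotes, beside 118 of 28316 genes tested. Over all genes, the counts of 1483, 694 and 1145 at an unadjusted p under 0.05 in the 3 comparisons were 2155, 1210 and 1795 with no filter and 959, 577 and 653 with DESeq2 on the 2 genotypes. Without single libraries they were 976 (control 3) and 2235 (heterozygote 1) in the first, 382 (homozygote 2) in the second and 1752 (heterozygote 2) in the third. The cause of these moves was not tested. No tested gene of these complexes or of the lists of partner genes changed sign while called, in these alternatives.

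The pools were matched by litter across genotypes, and the genotypes share the replicate numbers 1 to 3, but no source says that a number marks the same litters. Deviations of same-numbered libraries correlated at 0.32, 0.11 and 0.090 for heterozygotes and controls, 0.31, 0.18 and 0.022 for homozygotes and controls, and 0.29, 0.14 and 0.080 between the mutants, so not every pair passed 0.1. The libraries numbered 1 and 2 correlated best with their own number and those numbered 3 did not, which is a hint from the data on what the numbers mark. With the replicate number as a block the counts were 16, 7 and 5 (Cox18 lower in the first pair), beside 1651, 782 and 1259 of all 17671 genes, and the median of the subunits 0.28, 0.16 and −0.12.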

Other observations

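Of 13 tested near-identical copies of these genes, 7 were higher in heterozygotes and 7 in homozygotes at an unadjusted p under 0.05 in edgeR, and 0 were lower, beside 4.3% and 2.21% of all genes higher, with median log2 fold changes of 0.54 and 0.60. Apart from 4930481A15Rik the tested copies have 171 to 390 exon bases. In the shortest length class, which holds such genes, 10.6% and 5.99% of all genes were higher. Reads could have been divided between a gene and its copies, so the counts of the copies are uncertain too. The processed pseudogenes of Cox7b, Gm13771 and Gm19503, took 3.91 to 4.31% of the joint count with Cox7b in control libraries, 5.19 to 7.09% in heterozygotes and 5.73 to 7.95% in homozygotes, so the controls lay below both mutants. For Cox6c and its 2 copies the ranges were 6.88 to 7.89%, 8.09 to 10.9% and 8.48 to 13.8%, again with the controls lowest. For Uqcr11 they were 10.9 to 12.8%, 14.4 to 16.2% and 10.7 to 16.9%, and the homozygotes overlapped the controls. Of the 10 genes with copies, the share lay above the controls in both mutants in 2 (Cox6c and Cox7b), in heterozygotes alone in 2 (Cox5b and Uqcr11), and in 6 it overlapped them in both (Cox20, Cox7a2l, Cox7c, Cycs, Uqcr10 and Uqcrb). The copies were examined after the values of these genes had been seen, their shares were not tested, and 3 libraries against 3 cannot reach a two-sided exact permutation p below 0.1.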
